A study of Mus musculus with 45 samples.

Results

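The genes described here are the chains of the collagens and laminins and 6 further genes of the basement membrane and pericellular matrix (Nid1, Nid2, Hspg2, Agrn, Fn1 and Sparc). A gene was taken when its symbol was that of a collagen or laminin chain or was on that short list, and stood on 1 row of the tables. This gave 61 genes of 49922 in all, of which 44 were collagen chains and 11 laminin chains. They were followed through 9 groups of libraries from the dentate gyrus (DG) of C57Bl6J Nestin-GFP mice of 6 to 9 weeks. NSCs and IPCs were sorted from the same mice, as GFP+ cells negative for CD31, CD45, O1 and O4. NSCs were also positive for GLAST, the glutamate transporter encoded by Slc1a3, and IPCs were negative for it. In these mice Nestin regulatory sequence drives GFP, and it is also active in some endothelial and oligodendroglial cells. The whole DG libraries came from other mice, which the sample labels also give as Nestin-GFP, while the study's text calls those of the untreated set wild type.

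Untreated mice gave NSCs and IPCs of 3 mice, each in 3 technical replicates of 300 cells, and whole DG of 3 other mice. A separate experiment took the DG 4 h after lateral fluid percussion injury (LFPI) or after sham treatment, in which the mice had the craniectomy and were attached to the device without a fluid pulse. It held 3 LFPI and 2 sham mice for NSCs, 3 and 3 for IPCs, and 3 and 3 further mice for whole DG. Every value below is a normalized count, meaning the reads of a gene divided by the size factor of its library, averaged over the technical replicates of a mouse. Reads in genes ran from 9292264 to 21598519 per library. The libraries of sorted cells and of whole DG were made with different kits and from different amounts of RNA, so cell population, kit and input, and possibly genotype, cannot be told apart in any comparison of sorted cells with whole DG. In bulk libraries fewer cells of a type and less RNA per cell also cannot be told apart.

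Basement membranes are thin sheets of matrix on which epithelia, endothelia, pericytes and muscle rest. Laminin trimers of an α, a β and a γ chain and the type IV collagen network form the sheet, nidogens and perlecan (Hspg2) tie them together, and agrin and other heparan sulfate proteoglycans bind growth factors there. In the adult brain the main basement membranes are those of the blood vessels, where laminin α4 is typical of endothelium and laminin α2 of astrocyte endfeet and pericytes, and neural stem cells of the DG lie close to vessels. Fibril-forming collagens belong to fibroblasts of the meninges and of larger vessels.

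Sparc had the highest level in sorted cells and Col25a1 the largest fold change between untreated NSCs and whole DG. Col4a1 and Col4a2 share a start region. The promoters of these 4 genes are shown. Each is the stretch from 250 bases before to 50 bases after the start of transcription in RefSeq on GRCm38.p6, read 5′ to 3′ on the strand of the gene. Capitals mark a CCAAT box (CCAAT) or a GC box (GGGCGG) on either strand. Sparc lies at chr11:55420031-55420330 on the minus strand, Col25a1 at chr3:130180595-130180894 on the plus strand, Col4a1 at chr8:11312777-11313076 on the minus strand and Col4a2 at chr8:11312555-11312854 on the plus strand.
Sparc: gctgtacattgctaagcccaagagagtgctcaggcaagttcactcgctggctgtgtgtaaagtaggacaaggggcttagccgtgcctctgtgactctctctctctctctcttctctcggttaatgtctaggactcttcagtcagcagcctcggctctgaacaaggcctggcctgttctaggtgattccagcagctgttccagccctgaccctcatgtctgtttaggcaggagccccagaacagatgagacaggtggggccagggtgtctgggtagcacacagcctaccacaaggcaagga
Col25a1: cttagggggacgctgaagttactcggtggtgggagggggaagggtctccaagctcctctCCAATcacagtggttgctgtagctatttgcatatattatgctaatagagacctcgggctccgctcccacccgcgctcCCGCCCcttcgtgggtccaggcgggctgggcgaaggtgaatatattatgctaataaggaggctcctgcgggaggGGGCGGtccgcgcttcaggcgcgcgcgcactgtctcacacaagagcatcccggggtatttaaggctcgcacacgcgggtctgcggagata
Col4a1: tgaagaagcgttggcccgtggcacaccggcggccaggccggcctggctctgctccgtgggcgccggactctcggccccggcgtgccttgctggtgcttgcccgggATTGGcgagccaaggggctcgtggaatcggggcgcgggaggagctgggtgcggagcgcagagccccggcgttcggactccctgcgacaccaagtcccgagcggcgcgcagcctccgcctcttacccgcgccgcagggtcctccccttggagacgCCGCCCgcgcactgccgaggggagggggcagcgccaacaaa
Col4a2: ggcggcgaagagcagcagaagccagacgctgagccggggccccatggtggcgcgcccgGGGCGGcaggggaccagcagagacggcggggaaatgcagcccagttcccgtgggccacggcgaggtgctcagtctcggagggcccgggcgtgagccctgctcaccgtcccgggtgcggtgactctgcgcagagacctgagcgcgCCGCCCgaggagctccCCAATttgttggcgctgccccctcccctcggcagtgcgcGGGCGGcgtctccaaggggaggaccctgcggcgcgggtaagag

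The windows of Col4a1 and Col4a2 shared 78 bases, since the start sites of the pair lie 21 bases apart and the genes run away from each other. Both windows were GC rich (74% and 73.7%, against a median of 52.7% over all promoters), with 37 and 33 CG pairs. Col25a1 had 60% GC and Sparc 55.3%, and the Sparc window held 4 CG pairs. One CCAAT box stood in each of the windows of Col25a1, Col4a1 and Col4a2, and 2, 1 and 3 GC boxes. The Sparc window held neither box, nor a TATA box (TATAAA), on either strand. Over 32851 promoters, 37.4% held the CCAAT box, 35.7% the GC box and 13.6% the TATA box. A RefSeq promoter was found for 44 of the 61 genes.

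**Figure D1:**
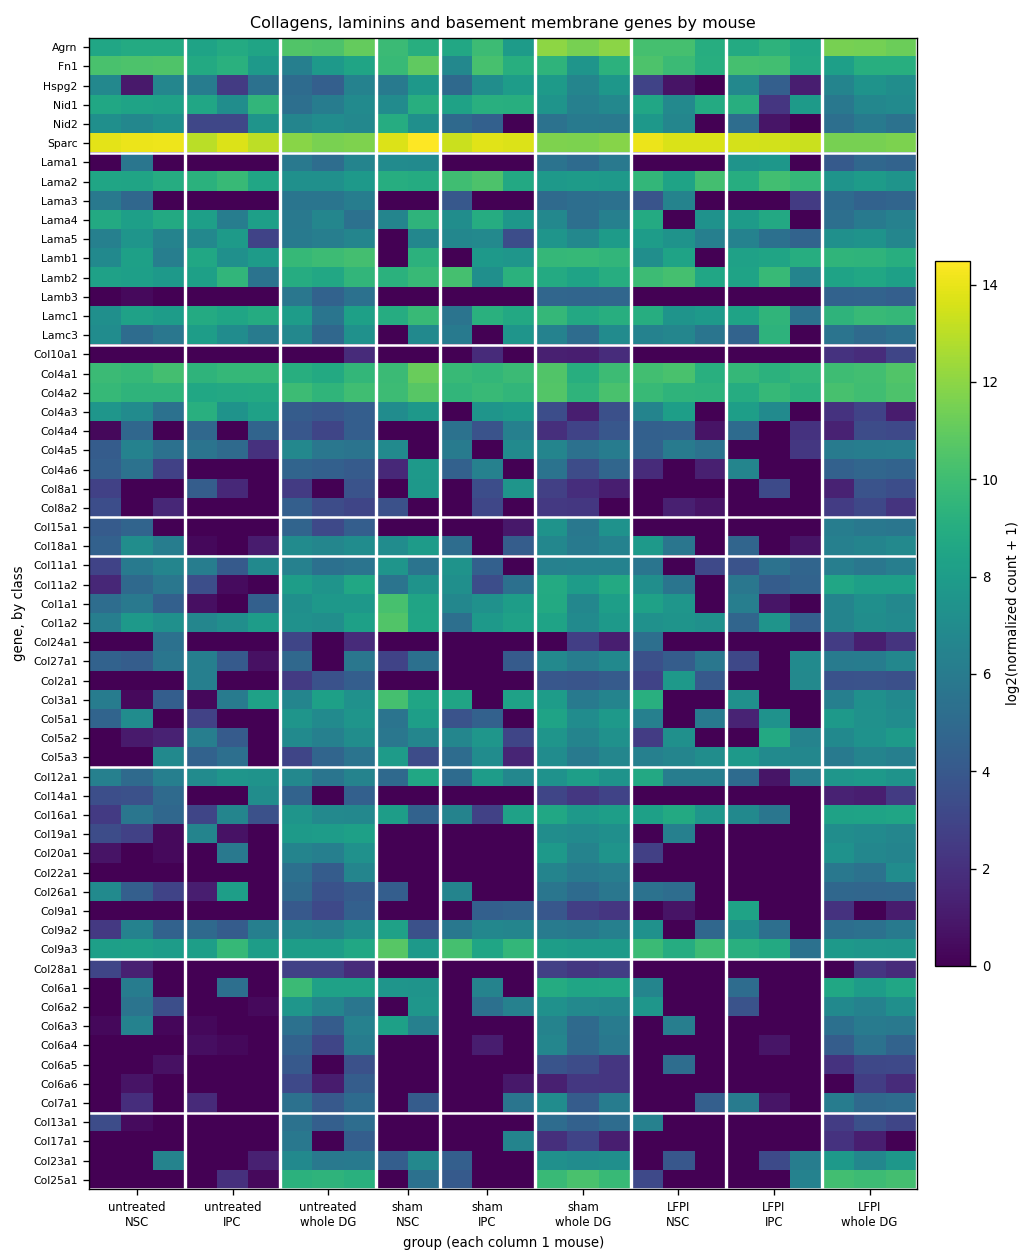
Level of the genes (rows, grouped by class) in each mouse (columns, grouped by treatment and population), as log2(normalized count + 1). Sparc is the brightest row in all sorted groups and in untreated whole DG, while in sham whole DG Agrn reaches 4096 and Sparc 3628, and 54 of the 61 genes had reads in all 3 untreated whole DG libraries against 13 in all 9 untreated NSC libraries and 11 in all 9 untreated IPC libraries.

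Sparc, which encodes a secreted collagen-binding glycoprotein, held most of the reads of the 61 genes in untreated sorted cells. In untreated mice the 61 genes together took 0.223% ± 0.0130 of all normalized counts in NSCs (SD, n = 3), 0.152% ± 0.0265 of those in IPCs and 0.0774% ± 0.0111 of those in whole DG. Sparc made up 70.3% ± 0.878 of that sum in NSCs, 60.2% ± 5.33 of it in IPCs and 25.5% ± 3.53 of it in whole DG. Without Sparc the remaining genes took 0.0661% ± 0.00279 of the NSC counts, 0.0597% ± 0.00253 of the IPC counts and 0.0579% ± 0.0103 of those of whole DG. The exact permutation test over mice gave p = 0.3 for NSCs against whole DG and p = 0.8 for IPCs against whole DG, where 0.1 is the smallest p that 3 mice against 3 allow. Per kilobase of exon, the mean level of Sparc in NSCs was 4431, followed by Col4a1 at 131, Fn1 at 118 and Col4a2 at 111, and in whole DG Sparc at 902 was followed by Agrn at 180.2 and Col4a2 at 137.

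Many of the other genes had few reads in the sorted cells. Of the 61 genes, 7 had no read in any of the 9 untreated NSC libraries and 16 had none in the 9 IPC libraries, while each had reads in at least 1 whole DG library. Technical replicates of a mouse also differed widely. Lamb1, the laminin β1 chain, read 0, 14.6 and 879 normalized counts in the 3 NSC libraries of mouse 2, and Nid1 read 369, 463 and 1366 in the IPC libraries of mouse 3. A 0 in these libraries therefore sets only an upper limit, taken below as 3 reads over the group. This limit covers counting error only, and not the spread between technical replicates, so the folds derived from it are not firm minimums.

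The sort was checked against its own genes and against markers of other cells. Slc1a3 read 5655 to 11394 normalized counts in untreated NSCs and 6376 to 9324 in IPCs, a log2 difference of -0.02 ± 0.24 (limma, adjusted p = 0.996), and Nes, the gene behind the GFP, read 252 to 311 in NSCs and 66.8 to 156 in IPCs. Pecam1, which encodes CD31, read 2809, 3457 and 3359.6 in NSCs and 596, 1827 and 514 in IPCs against 86, 109 and 171 in whole DG, although CD31+ cells were gated out. The summed level of 16 endothelial markers was 82732 to 102931 in NSCs, 24700 to 55063 in IPCs and 3259 to 4645 in whole DG, led by Ly6c1, Slco1a4 and Cldn5 in NSCs, and 15 of the 16 passed the test as higher in NSCs. The sum of 15 markers of pericytes and smooth muscle was 57948 to 85330 in NSCs, 85865 to 97344 in IPCs and 1749 to 2597 in whole DG, led by Vtn, and 11 of the 15 passed as higher in NSCs. The sum of 12 neuronal markers was 6186 to 7946 in NSCs and 198276 to 221749 in whole DG. Vascular markers thus moved together with the genes called higher below, and their part in those results was not tested.

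Markers of the sorted types themselves were summed too. Those of intermediate progenitors and neuroblasts (12 genes) came to 61747 to 75694 in IPCs, 28433 to 48100 in NSCs and 11262 to 11968 in whole DG, so both populations carried them, IPCs the most. Those of radial glia-like stem cells (12 genes) came to 13049 to 19882 in NSCs, 8924 to 14171 in IPCs and 18311 to 19335 in whole DG, and NSCs overlapped with both other groups. The 10 astrocyte markers came to 49146 to 87746 in NSCs, 47353 to 72023 in IPCs and 111397 to 126533 in whole DG.

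The first question was how NSCs differ from whole DG in untreated mice. The test was limma on log2(normalized count + 1), run on every gene whose mean over the 3 groups reached 10 and adjusted by Benjamini-Hochberg over all of them. A call needed an adjusted p under 0.05 and a change of 1 or more on the log2 scale. Of the 61 genes, 52 could be tested and 9 were too low (Col10a1, Col17a1, Col24a1, Col28a1, Col6a5, Col6a6, Col8a1, Col8a2 and Col9a1). In NSCs 6 of the 52 were called higher and 16 lower, where 12.4% of all 17638 genes were called higher and 30.7% lower. The median log2 fold change was -1.98 over the 52 genes and -0.64 over all genes tested. With the libraries rescaled to one total the median of all genes moved to 0.04, the calls over all genes to 4132 higher and 3712 lower in place of 2184 and 5413, and the calls among the 52 to 7 higher and 13 lower. Of the genes tested, 7 reached the minimum level through whole DG alone (Col13a1, Col22a1, Col25a1, Col6a4, Col7a1 and Lamb3 among them), so these had to be lower in sorted cells. They made up 7 of the 16 called lower in NSCs.

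In IPCs 4 of the 52 were called higher and 24 lower, where 11.4% of all genes were called higher and 31.1% lower, with a median of -2.04 over the 52 and -0.68 over all genes. Of the 24, 7 had reached the minimum level through whole DG alone, so that filter set part of this count. Rescaled, the median of all genes was -0.01, the calls over all genes were 4003 higher and 3692 lower in place of 2007 and 5490, and among the 52 they were 9 higher and 22 lower. NSCs and IPCs shared the whole DG libraries as controls. Both had Sparc, Nid1, Lama2 and Col4a3 called higher, and 15 genes called lower.

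Sparc read 15444, 17242 and 17669 normalized counts in NSCs, 7953, 13483 and 8580.1 in IPCs, and 3904, 3053 and 3291 in whole DG. No sorted mouse overlapped with whole DG. The log2 fold change was 2.30 ± 0.19 (SE) in NSCs (limma, adjusted p = 2.5e-05) and 1.52 ± 0.19 in IPCs (adjusted p = 0.00029). It was higher in NSCs than in IPCs in all 3 mice, with a log2 difference of 0.78 ± 0.19 that missed the threshold (adjusted p = 0.084).

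Fn1 encodes fibronectin, a cell-adhesive glycoprotein of plasma and matrix. It read 1291, 1379 and 1459.8 in NSCs, 450.1, 588 and 216 in IPCs, and 74.2, 223 and 357 in whole DG. NSCs lay above both other groups in every mouse, while 1 IPC value lay within the range of whole DG. Fn1 was called higher in NSCs (log2 fold change 2.92 ± 0.56, limma adjusted p = 0.0027) and had a value of 1.09 ± 0.56 in IPCs (adjusted p = 0.14). Its difference between NSCs and IPCs was 1.83 ± 0.56 (adjusted p = 0.15).

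Lama4 encodes the laminin α4 chain of vessel walls. It read 447, 285 and 445 in NSCs, 287, 68.8 and 287 in IPCs, and 56.5, 101 and 41.3 in whole DG. All NSC values stood above whole DG, and IPC mouse 2 fell within its range. The log2 fold change was 2.62 ± 0.61 in NSCs (limma, adjusted p = 0.0068) and 1.52 ± 0.61 in IPCs (adjusted p = 0.066). With the first technical replicate alone the NSC call was lost and the IPC value turned negative.

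Lama2 encodes the laminin α2 chain, lost in merosin-deficient muscular dystrophy. It read 359.6, 347 and 492 in NSCs, 602, 859.9 and 384 in IPCs, and 151, 156 and 225 in whole DG, with no overlap between sorted cells and whole DG. The log2 fold change was 1.18 ± 0.33 in NSCs (limma, adjusted p = 0.018) and 1.74 ± 0.33 in IPCs (adjusted p = 0.0029). The NSC call was lost without whole DG mouse 4, without whole DG mouse 5 or without NSC mouse 3. With the first technical replicate alone the calls in both populations were lost.

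Nid1 encodes nidogen-1, the link between laminin and type IV collagen. It read 393, 331 and 313 in NSCs, 374, 138 and 733 in IPCs, and 37.7, 66.8 and 123 in whole DG. The sorted cells did not overlap with whole DG, and the IPC mice were the most spread. The log2 fold change was 2.33 ± 0.63 in NSCs (limma, adjusted p = 0.014) and 2.29 ± 0.63 in IPCs (adjusted p = 0.015). Both calls were lost without whole DG mouse 4, and with the first technical replicate alone. Nid2, its paralog, read 147, 102 and 149 in NSCs, 7.57, 7.51 and 178 in IPCs, and 94.2, 130.0 and 106 in whole DG, and was not called in either population.

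Col4a3, whose product joins a type IV network best known from the glomerulus, read 193, 126 and 42.1 in NSCs, 571, 173 and 311 in IPCs, and 17.7, 14.1 and 19.4 in whole DG. Its change on the log2 scale was 2.51 ± 0.66 in NSCs (limma, adjusted p = 0.012) and 4.13 ± 0.66 in IPCs (adjusted p = 0.001). Both calls were lost with the first technical replicate alone. Exons of Col4a3 overlap those of C430014B12Rik on the other strand over 563 bases. Since reads were counted without strand, its value is uncertain, as are those of Lama2, Fn1, Nid1 and Nid2, which overlap other genes over 631, 292, 143 and 437 bases. Without the technical replicate 2 of IPC mouse 2, which had the fewest genes passing the low-input filter CLEAR, Col4a2 was the one IPC call lost.

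**Figure D2:**
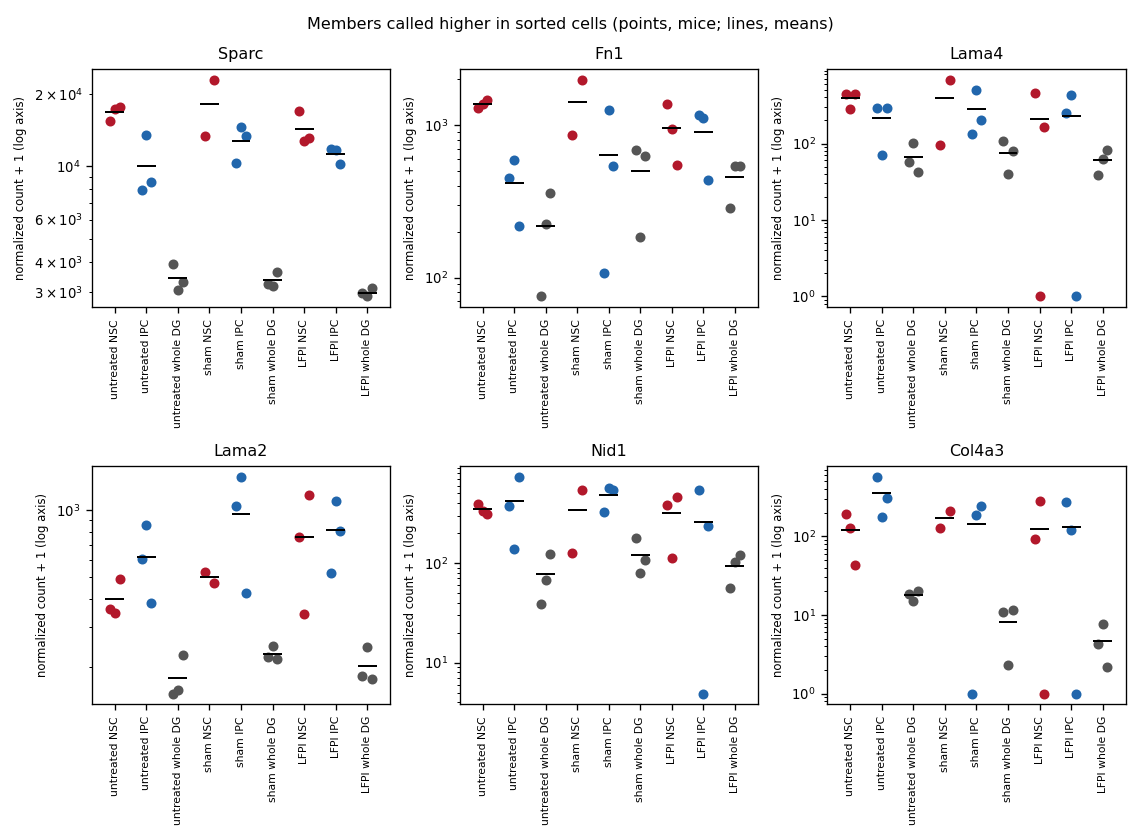
Normalized count + 1 (log axis) of the 6 genes called higher in untreated NSCs, by mouse, in the 9 groups. Points are mice (red NSCs, blue IPCs, grey whole DG) and lines are group means. Sparc in every sorted mouse, from 7953 upward, lies above every whole DG value, the highest of which is 3904.

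Col4a1 and Col4a2 encode α1(IV) and α2(IV), the chains of the type IV network found in nearly all basement membranes. Col4a1 read 944, 843 and 1139 in NSCs, 684, 806 and 795 in IPCs and 532, 451 and 759 in whole DG. Col4a2 read 835, 692 and 674 in NSCs, 399.6, 421 and 448 in IPCs and 962, 709 and 1048 in whole DG. The fitted change of Col4a1 was 0.77 ± 0.22 in NSCs (log2, limma, adjusted p = 0.019, under the fold minimum) and 0.42 ± 0.22 in IPCs (adjusted p = 0.15), and that of Col4a2 was -0.29 ± 0.19 in NSCs (adjusted p = 0.24) and -1.08 ± 0.19 in IPCs (adjusted p = 0.002, called lower). The call of Col4a2 was lost without technical replicate 2 of IPC mouse 2, without whole DG mouse 6, with the first technical replicate alone, with the libraries rescaled, and with edgeR or DESeq2 on the recovered reads. The NSC value of Col4a2 changed sign when the libraries were rescaled and with edgeR and DESeq2, as given in the closing section. Col4a1 gained a call in 4 of 16 alternatives in NSCs, with values from 0.61 to 1.47. In IPCs it gained a call in 1 of 16, with values from 0.058 to 1.12.

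Within 1 library the ratio of Col4a1 to Col4a2 does not depend on the size factor, though averages over technical replicates do. From the values per mouse the ratio was 1.13, 1.22 and 1.69 in NSCs, 1.71, 1.92 and 1.78 in IPCs, and 0.553, 0.636 and 0.724 in whole DG. Col4a1 thus exceeded Col4a2 in the averages of all 6 sorted samples and in 0 of 3 whole DG libraries. The 1.92 of IPC mouse 2 rested on technical replicate 2, which read 1206 for Col4a1 and 1.02 for Col4a2. The other libraries of that mouse read 688 and 523 for Col4a1 and 843 and 418 for Col4a2. The mean log2 ratio was 1.06 higher in NSCs and 1.51 higher in IPCs than in whole DG, each at an exact permutation p of 0.1, the smallest that 3 mice against 3 allow. The IPC value includes technical replicate 2 of mouse 2, and the ratio was not tested without it. The exons of Col4a1 span 7.464 kb and those of Col4a2 6.619 kb. In the LFPI experiment the ratio ran from 0.954 to 1.38 in sham NSCs, from 0.882 to 1.30 in sham IPCs and from 0.765 to 0.955 in sham whole DG, and sorted cells and whole DG overlapped (exact permutation p = 0.3 and 0.2).

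**Figure D3:**
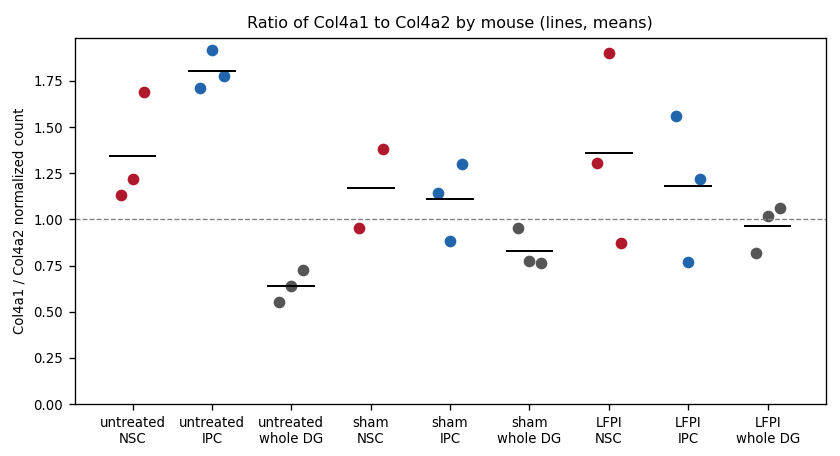
Ratio of the normalized counts of Col4a1 and Col4a2 in each mouse (points) of the 9 groups, with group means (lines) and equality (dashed). Untreated whole DG lies between 0.553 and 0.724 and untreated IPCs between 1.71 and 1.92, while in the LFPI experiment the groups overlap. The 1.92 is IPC mouse 2, whose technical replicate 2 read 1.02 for Col4a2.

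Among the genes called lower, Col25a1 had the largest fold change. It encodes a transmembrane collagen made by neurons. It read 628, 696 and 590.2 in whole DG, 0 in all 9 NSC libraries, and 0, 3.07 and 0.294 in the IPCs of the 3 mice. On counting error alone, the limit of 3 reads over the 9 NSC libraries put it at least 2217-fold lower in NSCs than in whole DG. Col25a1 had reached the minimum level through whole DG alone, so it had to be lower in sorted cells. The fitted value in IPCs was -8.52 ± 0.65 (limma, adjusted p = 1.9e-05). The neuronal markers moved with it, as given above.

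Agrn encodes agrin, the heparan sulfate proteoglycan that clusters acetylcholine receptors at the neuromuscular junction. It read 378, 469.5 and 461 in NSCs, 335, 454 and 355 in IPCs, and 1484, 1374 and 2161 in whole DG, with no overlap between sorted cells and whole DG. The log2 fold change was -1.91 ± 0.22 in NSCs (limma, adjusted p = 0.00016) and -2.11 ± 0.22 in IPCs (adjusted p = 0.00011). Lamb1 read 117, 298 and 71.6 in NSCs, 387, 151 and 246 in IPCs, and 817, 957 and 1128 in whole DG, and was called lower in both (-2.81 ± 0.53, adjusted p = 0.0023, and -1.97 ± 0.53, adjusted p = 0.014). Its alternative, the laminin β2 chain of Lamb2, read 221 to 315 in NSCs, 44.3 to 727 in IPCs and 408 to 734 in whole DG, and was not called. The γ1 chain of Lamc1, shared by most laminins, read 145 to 316, 358 to 475 and 49.2 to 296 in the same order and was not called either. The perlecan gene Hspg2 read 109, 1.01 and 99.6 in NSCs, 67.5, 4.68 and 40.7 in IPCs, and 31.8, 19.9 and 85 in whole DG, and its groups overlapped.

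Of the 11 laminin chains, all were tested, and 2 were called higher and 4 lower in NSCs, with 1 and 5 in IPCs. Over all genes, higher calls stood at 12.4% for NSCs and 11.4% for IPCs, and lower calls at 30.7% and 31.1%. Lamb3, the laminin β3 chain of epithelial anchorage, read 22.3 to 53 in whole DG. In NSCs it was above 0 in 1 mouse only, at 0.295, and in IPCs it had no read, which makes it at least 140.0-fold lower than in whole DG. Lama3 and Lama1 also had no read in any IPC library (at least 200.3-fold and 219.5-fold lower). Lama3 was called lower in IPCs, and Lama1 in both populations. Lama5 and Lamc3 were not called.

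Of the fibril-forming collagens, 10 of 11 were tested, with 0 called higher and 2 lower in NSCs (Col5a2 and Col11a2) and 0 and 3 in IPCs (Col11a2, Col5a1 and Col1a1). Lower calls made up 30.7% (NSCs) and 31.1% (IPCs) of all genes tested, and higher calls 12.4% and 11.4%. Col1a1 and Col1a2 encode the chains of type I collagen. Col1a1 read 35.9, 57 and 20.9 in NSCs, 0.487, 0 and 20.5 in IPCs, and 146, 209 and 211 in whole DG, with a log2 fold change of -5.88 ± 1.09 in IPCs (limma, adjusted p = 0.0024) and -2.38 ± 1.09 in NSCs (adjusted p = 0.1). Col1a2 read 72.8 to 229.9 in NSCs, 98.1 to 256 in IPCs and 141 to 302 in whole DG, and was not called. Col3a1, the partner of type I collagen in vessel walls, read 0.295 to 66.9, 0.234 to 308 and 95.4 to 295 in the same order, and was not called. The sum of 14 fibroblast and leptomeningeal markers was 6250.3 to 11089 in NSCs, 2969 to 5366 in IPCs and 8199 to 9337 in whole DG.

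The collagens of beaded filaments and anchoring fibrils were low in untreated sorted cells. Of 8 such genes 5 were tested, and 4 were called lower in NSCs (Col6a1, Col6a2, Col6a4 and Col7a1) and all 5 in IPCs, Col6a3 with them. Over all genes 30.7% were called lower in NSCs and 31.1% in IPCs. Col6a4 and Col7a1 had reached the minimum level through whole DG alone, so they had to be lower. In sham NSCs Col6a1 read 189 and 181 against 370 to 489 in whole DG, but Col6a3 read 298 and 76.7 against 30.7 to 86.8. Col6a1, a chain of the type VI microfibril, read 939.7, 312 and 307 in whole DG, 0, 66.2 and 0 in NSCs, and 0, 37.8 and 0 in IPCs. Of the fibril-associated collagens, 9 of 10 were tested and 3 were called lower in both populations. These were Col19a1, Col20a1 and Col22a1, and Col22a1 had no read in any sorted library (at least 175-fold lower in NSCs, 182-fold in IPCs). Of the transmembrane collagens, Col25a1 and Col13a1 were called lower in both populations, and Col23a1 in IPCs. Of the network-forming collagens, 6 of 9 were tested, and beside Col4a3 and Col4a2 only Col4a6 was called, lower in IPCs. Of the endostatin-bearing collagens, Col15a1 and Col18a1 were called lower in IPCs and not in NSCs.

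The number of these genes called lower changed when single whole DG mice were left out. In NSCs it was 16 with all mice, 8 without whole DG mouse 4 and 7 without whole DG mouse 6. In IPCs it was 24, 14 and 12. Some of these genes then fell below the minimum level and were no longer tested. Over all genes, lower calls in NSCs were 5413 with all mice, 4274 without whole DG mouse 4 and 4256 without mouse 6. In IPCs they were 5490, 4201 and 4180. Why the counts fell was not tested. The whole range over mice left out is given in the closing section.

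**Figure D4:**
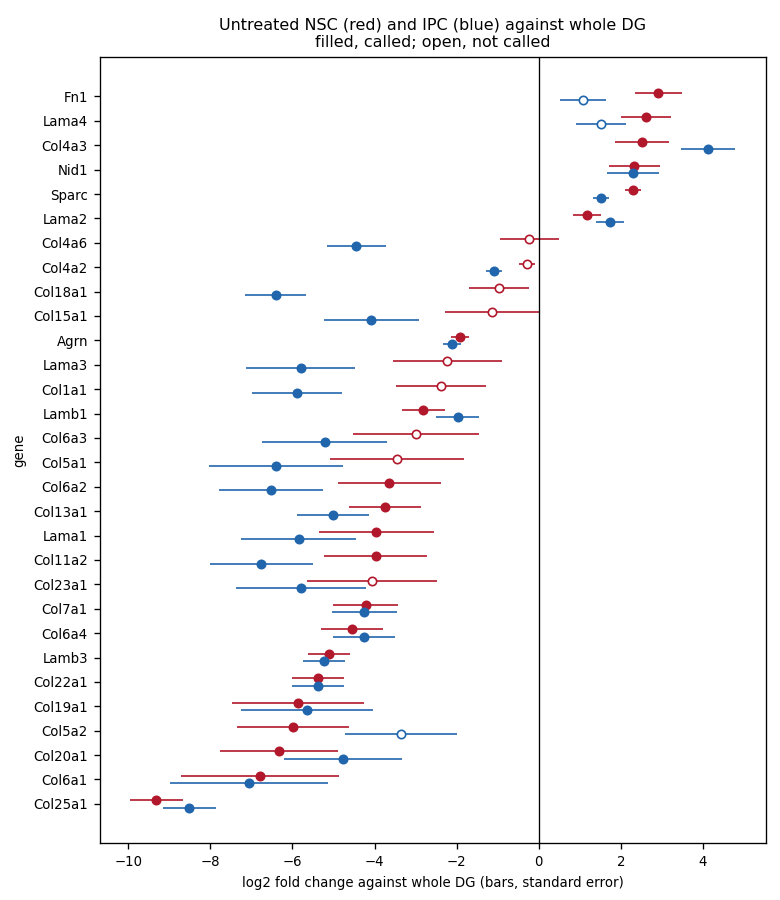
Log2 fold change (points) with standard error (bars) of untreated NSCs (red) and IPCs (blue) against whole DG, for genes called in at least 1 of the 2 comparisons. Filled points were called and open points were not. The fold changes run from -9.32 for Col25a1 to 2.92 for Fn1 in NSCs.

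NSCs and IPCs of untreated mice were compared directly, as sorted populations that both carried markers of other cells. Of the 52 genes 2 were called higher in NSCs and 0 lower, where 1.15% of all genes were called higher and 0.482% lower, and the medians were 0.17 over the 52 and 0.00 over all genes. Col18a1, which encodes the proteoglycan collagen from which endostatin is cut, read 21.9, 137 and 68.5 in NSCs and 0.234, 0 and 1.17 in IPCs, with a log2 difference of 5.44 ± 0.74 (limma, adjusted p = 0.012). Col4a6, the α6(IV) chain, read 20, 42.4 and 5.98 in NSCs and 0 in all 9 IPC libraries, which makes it at least 82.1-fold higher in NSCs (adjusted p = 0.026). All 3 mice differed in the same direction in both genes. With the mouse as a block, 0 of the 52 genes were called, and the adjusted p was 0.236 for Col18a1 and 0.350 for Col4a6. In that fit 0 of 16552 genes were called at all, while 2152 had an unadjusted p under 0.05. The call of Col4a6 was also lost without IPC mouse 1. Markers of other cells moved between the populations too, with 2 of 16 endothelial, 4 of 15 pericyte and smooth muscle, 2 of 14 fibroblast and 3 of 11 microglial markers called higher in NSCs. Of the 15 pericyte and smooth muscle markers 2 (Vtn and Kcnj8) were called lower in NSCs, whose summed level of 57948 to 85330 lay below the 85865 to 97344 of IPCs. The part of these markers in the result was not tested.

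Sham-treated mice gave a separate set of animals, whose table had been normalized on its own, so values were compared within it only. Of the 61 genes 51 were tested. In sham NSCs against sham whole DG, 1 of the 51 was called higher and 10 lower, where 15.4% of all 18049 genes were called higher and 24.1% lower. In sham IPCs 2 were called higher and 16 lower, where 16.1% were called higher and 27.9% lower. The medians were -0.89 and -1.98 over the 51 genes, and -0.37 and -0.53 over all genes, the latter moving to -0.12 and -0.23 with the libraries rescaled. Of the 51 genes, 8 reached the minimum level through whole DG alone (Col13a1, Col15a1, Col19a1, Col20a1, Col22a1, Col2a1, Col6a4 and Lama3), so these had to be lower in sorted cells, and they made up 7 of the 10 called lower in NSCs and 8 of the 16 in IPCs.

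Markers of other cells differed between the sham groups as well. The endothelial sum was 28632 to 79847 in NSCs, 21949 to 46294 in IPCs and 2698 to 6370 in whole DG, and that of pericytes and smooth muscle 22155 to 93347, 25063 to 72985 and 1986 to 3044 in the same order. The fibroblast and leptomeningeal sum was 41713 to 102933, 11934 to 91046 and 4215 to 7863, and the astrocyte sum 261995 to 403749, 178267 to 440429 and 83055 to 86964. The astrocyte sum thus lay above whole DG in sham sorted cells and below it in untreated ones, and the part of these markers in the results was not tested.

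Sparc was again higher, at 13290.2 and 22880.0 in sham NSCs, 10345, 14517 and 13343 in sham IPCs, and 3250.1, 3167 and 3628 in sham whole DG (log2 fold changes 2.38 ± 0.20 and 1.92 ± 0.18, limma adjusted p = 1.1e-06 and 1.6e-06). Lama2 read 527 and 472 in sham NSCs, 1037, 1405 and 423 in sham IPCs, and 219.8, 247 and 214 in sham whole DG. It was called in IPCs (1.90 ± 0.47, adjusted p = 0.0041), while NSCs had 1.13 ± 0.52 (adjusted p = 0.099). Sparc was thus 1 of the 6 genes called higher in untreated NSCs (16.7%) and the 1 called in sham NSCs (100%), and Sparc and Lama2 were 2 of 4 (50%) and 2 of 2 (100%) in IPCs. Over all genes, those called higher in both were 54.2% of the untreated and 42.7% of the sham list for NSCs, and 57.1% and 39.4% for IPCs. All 6 genes in NSCs and all 4 in IPCs kept their direction in sham mice. Of all genes called higher in untreated mice and tested in sham mice, 84.4% and 83.9% did so.

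The genes called lower in both experiments were 7 in NSCs, 43.8% of the untreated and 70% of the sham list, and 14 in IPCs, 58.3% and 87.5%. Over all genes the genes called lower in both were 47.5% of the untreated and 59.1% of the sham list for NSCs, and 54% and 58.9% for IPCs. Of the 7 genes 6, and of the 14 genes 8, had reached the minimum level through whole DG alone in at least 1 of the experiments, so that filter set part of these counts. In NSCs the 7 were Agrn, Col13a1, Col19a1, Col20a1, Col22a1, Col25a1 and Col6a4. Agrn was the one that had not, and read 932 and 531 in sham NSCs, 244 to 964 in sham IPCs and 2900.1 to 4096 in sham whole DG. Col25a1 read 0 and 42.1, 0 to 15.8, and 849 to 1258 in the same order.

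Between sham NSCs and sham IPCs limma called 0 of the 51 genes, where 0.0997% of all genes were called higher and 0.0554% lower, and 10 of the 51 had an unadjusted p under 0.05. DESeq2 on the recovered reads called Col6a3 and Lama1 higher and Col4a4 lower in NSCs. Over all 18049 genes 1587 had an unadjusted p under 0.05, and DESeq2 called 190 higher and 205 lower where edgeR called 4 and 2. Col18a1, one of the genes called in untreated mice, read 132 and 246 in sham NSCs and 35.3, 0 and 18 in sham IPCs, a log2 difference of 4.36 ± 2.00 (limma, adjusted p = 0.56). Col4a6, called in untreated mice too, read 2.2 and 231 in sham NSCs and 21.9, 81.8 and 0 in sham IPCs, and the groups overlapped. Fn1 read 857 and 1988 in sham NSCs and 106, 1249 and 542 in sham IPCs.

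LFPI was compared with sham treatment within each population to ask how the genes respond to injury at 4 h. In sorted cells the LFPI libraries were sequenced in other lanes and to greater depth than the sham libraries (15367572 to 17784627 against 11925924 to 13081689 reads in NSCs, and 16351321 to 21598519 against 9604877 to 12804286 in IPCs), so lane, depth and treatment cannot be told apart there. None of the genes was called in NSCs (44 tested), IPCs (44 tested), whole DG (49 tested) or in the test of the NSC response against the IPC response (45 tested). Over all genes 0% were called in each, that is 0 of 17274 in NSCs, 0 of 16970 in IPCs, 0 of 17434 in whole DG and 0 of 17230 for the difference in response. At an unadjusted p under 0.05 limma had 743, 752, 3468 and 565 genes, and edgeR called 0 genes in each, while DESeq2 called 207 higher and 40 lower in NSCs, 25 and 77 in IPCs, 112 and 94 in whole DG, and 99 and 31 for the difference.

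In NSCs limma called none of the genes of type I and type III collagen, although their means were lower after LFPI. Col1a2 read 1496 and 359 in the 2 sham mice and 162, 183 and 152 after LFPI, with a log2 fold change of -2.15 ± 0.65 (limma, adjusted p = 0.94). Col1a1 read 1215 and 347 in sham NSCs and 312, 191 and 0 after LFPI, and Col3a1 read 1163 and 368 against 557, 0 and 0, with overlap. Sham mouse 4 held the highest value of all 3 genes. The sum of the 14 fibroblast and leptomeningeal markers was 102933 in that sample, 41713 in the other sham mouse and 10978 to 28897 after LFPI, led by Ptgds, and its part in these values was not tested.

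The smallest p values in NSCs were those of Lama1, Hspg2 and Col1a2. Lama1, a laminin chain of the embryo and the pia, read 124 and 121 in sham NSCs and 0 in all 3 LFPI libraries (adjusted p = 0.94). Hspg2 read 61.6 and 209.5 in sham NSCs against 6.63, 0.727 and 0 after LFPI (-5.60 ± 1.65, limma adjusted p = 0.94). The sham and LFPI mice did not overlap in 8 of the 44 genes with lower values after LFPI (18.2%, against 10.2% of all genes) and in 1 with higher values, Col2a1 (2.27%, against 8.87%). The 8 were Col1a1, Col1a2, Col23a1, Col4a2, Col6a1, Col6a3, Hspg2 and Lama1. DESeq2 called Col13a1 and Col2a1 higher and Lama1 and Col1a2 lower. Col13a1 read 0 and 0 in sham NSCs and 82.9, 0 and 0 after LFPI, so its only reads came from LFPI mouse 1. The median log2 fold change was -1.05 over the 44 genes and -0.02 over all genes.

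In IPCs the smallest p values were those of Col1a1, Lama1 and Col5a3. Col1a1 read 104, 161 and 265 in sham IPCs and 71.5, 0.775 and 0 after LFPI (-5.03 ± 1.74, limma adjusted p = 0.92). The fibroblast and leptomeningeal sum was 11934 to 91046 in sham IPCs and 5047 to 6952 after LFPI. Lama1 read 0 in the 3 sham libraries and 177, 205 and 0 after LFPI, the reverse of NSCs, and the difference between the responses was -12.00 ± 2.79 (limma, adjusted p = 0.9996). Since 1 arm of Lama1 was at 0 in each population, that fitted value depends on the pseudocount. Col5a3 read 34.1, 131 and 1.8 in sham IPCs and 229.8, 119 and 104 after LFPI. No overlap was seen in 1 gene with higher values, Lamb1 (2.27%, against 4.68% of all genes), and in 1 with lower values, Col1a1 (2.27%, against 5.13%). The medians were -0.48 over the 44 genes and -0.04 over all genes.

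In whole DG the smallest p values were those of Col13a1, Lama1 and Agrn. Col13a1, a transmembrane collagen of the neuromuscular junction, read 33.6, 21.4 and 34.2 in sham DG and 4.92, 10.6 and 7.14 after LFPI, with a log2 fold change of -1.87 ± 0.41 (limma, adjusted p = 0.13). DESeq2 called it (-1.93, adjusted p = 0.039) together with Col1a1 (-1.18, adjusted p = 0.048), which read 435, 102 and 275 in sham DG and 91.8, 149 and 107 after LFPI. Lama1 read 44.8, 32.1 and 56.6 in sham DG and 16.4, 27.8 and 23.8 after LFPI (-0.94 ± 0.33, limma adjusted p = 0.18). Agrn read 4096, 2900.1 and 3983 against 2967, 2782 and 2386 (-0.42 ± 0.15, limma adjusted p = 0.19), and the groups overlapped.

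Sham and LFPI whole DG did not overlap in 9 of the 49 genes with lower values after LFPI (18.4%, against 13.9% of all genes) and in 0 with higher values (0%, against 9.03%). The 9 were Col11a1, Col13a1, Col26a1, Col2a1, Col9a3, Lama1, Lamb1, Lamb3 and Sparc. Sparc read 3250.1, 3167 and 3628 in sham DG and 2957, 2876 and 3119.6 after LFPI, a log2 fold change of -0.16 ± 0.10 (limma, adjusted p = 0.38). Col4a1 and Col4a2 had values of 0.36 ± 0.32 and 0.14 ± 0.26 (adjusted p = 0.56 and 0.79), and both turned negative without sham mouse 11. The medians were -0.28 over the 49 genes and -0.04 over all genes.

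**Figure D5:**
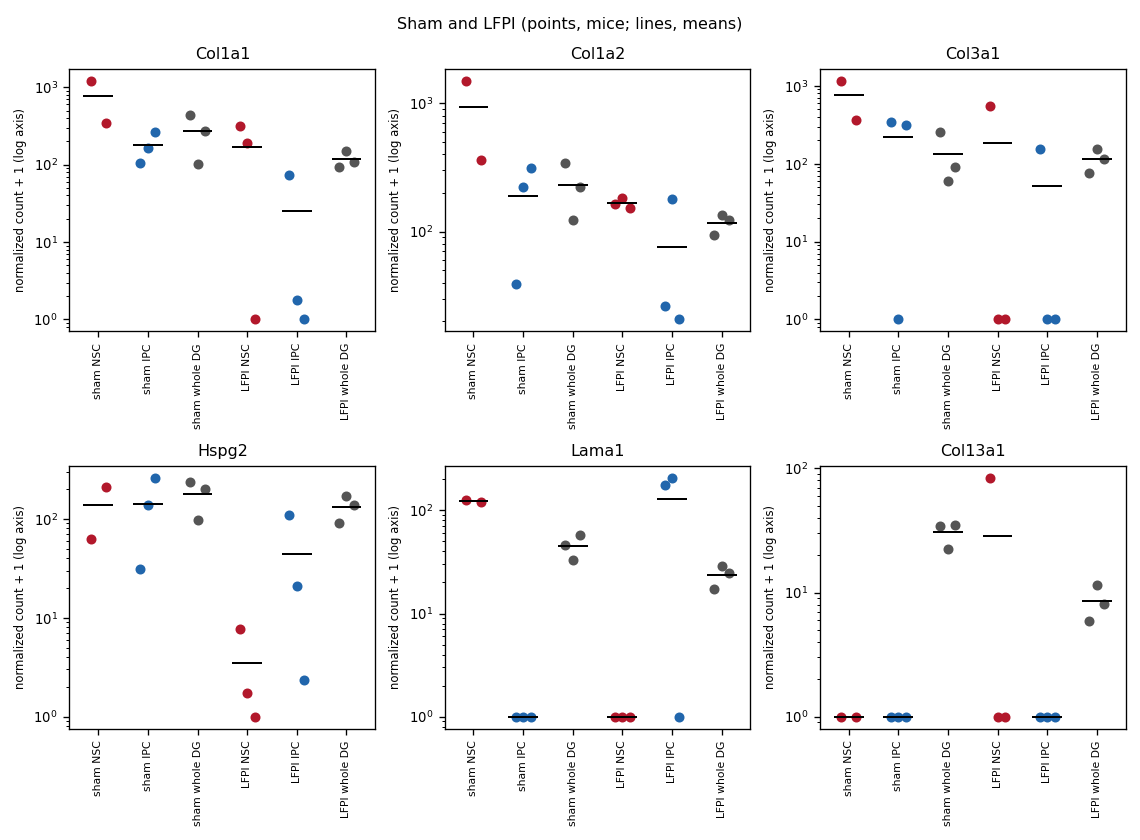
Normalized count + 1 (log axis) of Col1a1, Col1a2, Col3a1, Hspg2, Lama1 and Col13a1 by mouse in sham and LFPI groups. Points are mice (red NSCs, blue IPCs, grey whole DG) and lines are group means. Sham NSC mouse 4 is highest in the fibril-forming collagens, at 1215, 1496 and 1163, and none of these genes was called by limma.

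Genes that make, bind or cut these proteins were counted in the same fits. Of 29 genes of collagen folding, processing and crosslinking, 27 were tested in untreated mice, and 3 were called higher and 9 lower in NSCs, against 2 and 8 for IPCs. Over all genes the shares were 12.4% and 30.7% in NSCs and 11.4% and 31.1% in IPCs. In sham mice 28 were tested, and in NSCs 8 were called higher and 4 lower, against 7 and 10 for IPCs. Among all genes of the sham fits, 15.4% were called higher for NSCs and 16.1% for IPCs. Lower calls there came to 24.1% and 27.9%. The largest changes in NSCs were falls of Pcolce2 (-5.70), P4ha3 (-5.42) and Adamts3 (-4.96), and in IPCs of Adamts3 (-5.43), P4ha3 (-4.21) and Loxl1 (-4.20), all on the log2 scale. P4ha3 supplies a prolyl 4-hydroxylase subunit, Adamts3 trims procollagen ends, Pcolce2 assists that trimming, and Loxl1 crosslinks elastin and collagen. In untreated mice P4ha3 reached the minimum level through whole DG alone, so it had to be lower in sorted cells. How many genes of the folding, receptor and enzyme lists did so was not counted. The low level of P4ha3 in untreated sorted cells (0 to 1.01 normalized counts in NSCs, 0 to 10.8 in IPCs and 38.9 to 75.3 in whole DG) did not recur in sham mice, where it read 0 and 431 in NSCs, 252 to 509 in IPCs and 28.1 to 63.0 in whole DG and was not called. Of 14 receptors, 12 were tested, and 4 were called higher and 5 lower in NSCs, against 4 and 4 for IPCs. In sham mice 13 were tested, and in NSCs 3 were higher and 2 lower, against 3 and 3 for IPCs.

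Itga1, the α1 integrin subunit that binds type IV collagen, was higher in IPCs by 4.17 ± 0.42 (limma, adjusted p = 8.1e-05), with means of 1353 normalized counts ± 370.3 against 74.5 ± 21.2 in whole DG (SD, n = 3). The integrin subunit of fibrillar collagen, Itga11, had no value above 0 in untreated NSCs or IPCs against 146 ± 65.0 in whole DG. Itga11 thus reached the minimum level through whole DG alone and had to be lower in sorted cells. Itgb4 and the dystroglycan gene Dag1 were lower in NSCs (-4.39 ± 0.96 and -4.15 ± 0.41, limma adjusted p = 0.0053 and 6.1e-05), and Itga7, a laminin receptor subunit of muscle, in IPCs (-4.06 ± 0.63, adjusted p = 0.00089). Of 11 enzymes that cut basement membrane, 8 were tested, with 0 called higher and 1 lower in NSCs (Adamts4) and 0 and 4 in IPCs, led by Adamts1, Adamts4 and Adamts9. In sham mice 9 were tested, and in NSCs 2 were higher and 2 lower, against 2 and 3 for IPCs. The shares over all genes are those given with the folding genes. The genes higher there were the membrane-type metalloproteinase gene Mmp14 (2.79 ± 0.39 in NSCs and 2.03 ± 0.35 in IPCs, limma adjusted p = 6.4e-05 and 0.00027) and the cathepsin gene Ctsl (1.59 ± 0.24 and 1.54 ± 0.21, adjusted p = 0.00012 and 4.7e-05). In untreated mice Mmp14 had values of -1.67 ± 1.21 and -1.03 ± 1.21 (adjusted p = 0.28 and 0.50) and Ctsl of 0.90 ± 0.14 and 0.86 ± 0.14 (adjusted p = 0.00098 and 0.0014, under the fold minimum). After LFPI none of the genes of these 3 lists was called in any population.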

How the data were processed

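RNA was sequenced from sorted NSCs and IPCs (SMART-Seq HT and Nextera XT) and from extracted RNA of whole DG (NEBNext directional kit). The deposited values are a signal, the authors' featureCounts reads divided by DESeq2 size factors, after alignment with HISAT2 (version 2.0.6 in the submitters' notes) and base calling with CASAVA 1.8.2. The labels name GRCh38 as build, while the study's methods name a mouse build. A second deposited table holds the same values after the CLEAR filter for low-input libraries and was used as an alternative only. Untreated and LFPI tables were normalized separately. Columns of the authors' own comparisons hold fold changes and p-values and were not used, and 1 column of values that matched no sample was not used.

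Rows whose symbol stood more than once were left out (678 of 50600, leaving 49922). Technical replicates were averaged per mouse. Genes with a mean of at least 10 were fitted with limma 3.58.1 (trend) in R 4.3.3 on log2(value + 1), so that fold changes of low genes are understated. Calls needed a Benjamini-Hochberg adjusted p under 0.05 and a change of 1 or more on the log2 scale. Replicates are separate mice. Single values were compared by two-sided exact permutation tests. Whole reads were recovered from 100% of the values in 38 libraries, within a tolerance of 0.05 reads, and tested with edgeR 4.0.16 and DESeq2 1.42.0 as alternatives. On these reads edgeR called 3338 genes higher and 3424 lower in untreated NSCs against whole DG, and 0 in LFPI against sham. Scripts were tested on simulated data.

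NSCs and IPCs with the same number came from the same mouse, so the numbers pair them. Their deviations from the group means correlated at 0.0566, 0.0229 and 0.0405 in untreated mice, 0.0756 and 0.103 in sham mice, and 0.0854, 0.0526 and 0.0724 in LFPI mice.

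The genes and lists were chosen with earlier results of these data known. Named were every called gene up to 12 in each direction, the 3 genes of smallest p in each LFPI comparison, a fixed set of 17 main basement membrane genes, and the 3 largest calls of each other list. Exon lengths came from GENCODE M21. Limits from 0 counts are 3 reads over a group and cover counting error only. One gene that counts toward the totals is not reported here by name or value.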

Additional observations from a re-analysis of the deposited data

Results flagged for a closer look

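Col2a1, the chain of cartilage collagen, had higher values after LFPI in NSCs and lower values in whole DG, with no overlap between LFPI and sham mice in either. It read 0 in the 2 sham NSC mice and 6.63, 231 and 15.3 after LFPI. In whole DG it read 14, 13.4 and 17.1 in sham mice and 11.5, 11.9 and 10.7 after LFPI, near the minimum level of 10. The mean difference, LFPI minus sham, was 84.4 normalized counts in NSCs, carried mostly by the mouse at 231, and -3.46 in whole DG. Lamb1 likewise had mean differences of 254.9 in IPCs and -144.4 in whole DG, without overlap. Over all genes, such higher values were seen in 8.87% in NSCs and 4.68% in IPCs, and such lower values in 13.9% in whole DG. Neither difference between populations was tested, and limma called neither gene in any LFPI comparison.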

How the results depend on the processing

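Counts are given as higher and lower calls among the genes described. Untreated NSCs against whole DG had 6 and 16. The count higher was 2 with a CLEAR value in every library and 2 with the first technical replicate alone, and the count lower was 0 with CLEAR, 9 with edgeR and 10 with DESeq2. CLEAR left 2 of the 6 and 0 of the 16 to be tested. Untreated IPCs against whole DG had 4 and 24. The count higher was 1 with CLEAR, 9 with libraries rescaled, 8 with DESeq2 and 1 with the first technical replicate. The count lower was 0 with CLEAR and 14 with edgeR. CLEAR left 1 of the 4 and 0 of the 24 to be tested, so the others could not be called.

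Untreated NSCs against IPCs had 2 and 0. The count higher was 1 with pseudocount 10, 1 with no filter, 0 with CLEAR, 8 with DESeq2, 0 with the replicate block and 1 with the first technical replicate (a gene other than Col18a1 and Col4a6), and DESeq2 gave 1 lower. CLEAR left 0 of the 2 genes called higher to be tested. Sham NSCs against whole DG had 1 and 10, with 2 higher when rescaled, and 1 lower with CLEAR and 6 with edgeR. Sham IPCs against whole DG had 2 and 16, with 1 lower under CLEAR and 10 with edgeR. CLEAR left 1 of these 10 and 1 of these 16 to be tested, and each kept its call. For sham NSCs against IPCs and for LFPI, counts of 0 became, with DESeq2, 2 higher and 1 lower between sham populations, 2 and 2 in NSCs, 2 lower in whole DG, and 1 and 1 for the difference in response. The replicate block changed no other call. The causes were not tested.

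With each mouse left out in turn, the counts ran from 4 to 6 and 7 to 20 in untreated NSCs, 3 to 5 and 12 to 26 in untreated IPCs, 1 to 4 and 0 to 1 between them, 1 and 7 to 9 in sham NSCs, and 2 and 13 to 16 in sham IPCs. They stayed at 0 in the LFPI comparisons. Without sham NSC mouse 4, 6 of the 10 genes lower in sham NSCs kept their call. Over the fold changes of single named genes, 3143 of 3475 alternative values kept their direction and side of the threshold, 152 lost and 34 gained a call, and 146, of 57 of the 238 fold changes, changed sign. Neither the reported value nor the alternative was called in any of the 146 (smallest adjusted p 0.067 and 0.11). Of these, 6 concern fold changes given above. Col4a2 in untreated NSCs was 0.41 rescaled, 0.16 with edgeR and 0.030 with DESeq2, and Lama4 in untreated IPCs was -2.74 with the first technical replicate. After LFPI in whole DG, Col4a1 ran from -0.036 to 0.71 and Col4a2 from -0.20 to 0.39 with each mouse left out. The alternative without technical replicate 2 of IPC mouse 2 was chosen after seeing the data.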
